A study of Mus musculus with 12 samples.

Results

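The cytosolic ribosomal protein genes were taken as the rows of the count matrix that belong to a protein-coding mouse gene named Rpl or Rps with a number, or Rplp0 to Rplp2 or Rpsa. Pseudogenes and the Rps6 kinases were left out. The rule found 90 of 56748 genes. Of these, 43 encode proteins of the large (60S) subunit, 3 the proteins of its lateral stalk and 31 proteins of the small (40S) subunit. Of the other 13, 8 are paralogs of a subunit gene, 4 are retrocopies, which are intronless copies placed elsewhere in the genome, and Rps19bp1 encodes a nucleolar protein that binds RPS19 and is not part of the ribosome. Fau, which encodes a ubiquitin-like fusion with a 40S protein, and Rack1 do not carry such names and were looked at apart.

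The cells were bone marrow-derived macrophages (BMDM) of C57BL/6J mice, grown in 20 ng/mL M-CSF and made M2-like by 48 hours of IL4 (10 ng/mL), a treatment that all 4 groups shared. For the following 72 hours they were left as untreated control, given recombinant IFNβ (rIFNβ, 1500 pg/mL), or given supernatant of YUMM5.2 cells, a mouse melanoma cell line. The Ifnb1eGFP supernatant came from YUMM5.2 cells with a lentiviral, doxycycline (Dox)-inducible Ifnb1 and eGFP and was adjusted to 1500 pg/mL IFNβ, and the eGFP supernatant came from cells with eGFP alone, both after Dox at 1 μg/mL for 72 hours. Each group had 3 libraries of total RNA, described as coming from 3 mice, and p-values measure the spread between these libraries. The eGFP supernatant was diluted in the same ratio, what a replicate number stands for was not given, and in bulk RNA fewer cells of a type and less RNA per cell cannot be told apart.

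Each ribosome holds a single copy of nearly every ribosomal protein, so cells make these proteins in matched amounts. Their mRNAs are among the most abundant of any cell and start with a C and a run of pyrimidines, the 5′ terminal oligopyrimidine (TOP) motif, through which mTORC1 and LARP1 set their translation. Type I interferon can restrain translation at the level of the protein machinery. In macrophages ribosome production rises with growth and Myc and falls on differentiation.

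Library totals ran from 31526034 to 45348457 counts. Mitochondrially encoded genes took 1.13% to 1.5% of counts in the libraries without IFNβ and 0.446% to 0.656% in those with it. The macrophage markers Csf1r and Adgre1 stood at 1023 to 1189 and 1484 to 1836 CPM (TMM-scaled counts per 1000000) and Mrc1 at 609 to 839 CPM, while among M2 markers Chil3 stood at 63.2 to 129 CPM, Retnla at 45.4 to 71.3 CPM and Arg1 at up to 0.877 CPM. The summed level of 11 macrophage markers, of which Lyz2 alone had 3441 to 12828 CPM, was 14876 to 19342 CPM without IFNβ and 10548 to 11600 CPM with it. Markers of T cells (5 genes), B cells (4) and erythroid cells (5) summed to at most 1.19 CPM, and neutrophil markers (7) to 4.31 to 5.75 CPM without IFNβ and 0.237 to 1.01 CPM with it. The defining melanocyte markers Tyr, Tyrp1, Dct, Sox10 and Mlana reached at most 0.126 CPM; the list of 8 summed to 88.2 to 168 CPM through Mitf, which macrophages also express. The 5 dendritic cell markers summed to 1.24 to 1.61 CPM without and 0.273 to 0.48 CPM with IFNβ. The 5 fibroblast markers summed to 30.5 to 84.0 CPM with overlapping ranges in the 4 groups. The part of these differences in the results below was not tested.

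Ribosomal protein genes took between 1.59% and 1.88% of all counts in every library. The share was 1.82%, 1.78% and 1.82% in the untreated control, 1.69%, 1.72% and 1.71% with eGFP supernatant, 1.80%, 1.83% and 1.88% with rIFNβ, and 1.59%, 1.77% and 1.68% with Ifnb1eGFP supernatant. As means this was 1.80% ± 0.0238, 1.71% ± 0.0109, 1.84% ± 0.0379 and 1.68% ± 0.0917 (SD, n = 3 each). The eGFP supernatant libraries lay below all untreated and rIFNβ libraries, and the Ifnb1eGFP supernatant libraries overlapped the eGFP supernatant libraries. With 3 libraries against 3 an exact permutation test cannot give a p under 0.1, so the shares are given without a test.

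Not all members could be measured. After the filter on low counts 86 of the 90 were tested among 15033 genes, which included all 77 subunit genes. Rpl10l, the autosomal paralog of Rpl10 that is used in male germ cells, had 0 counts in all 12 libraries, which allows a level of up to 0.0662 to 0.0952 CPM depending on the library. Rpl3l, the form of Rpl3 that muscle uses, reached at most 9 counts, Rpl27rt 3.46 and Rps23rg1 1.23 estimated counts. Of the testis-enriched Rpl39l there were 0 to 1.20 CPM, the most variable values of any tested member.

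Per kilobase of annotated coding sequence, the median subunit gene stood at 427 CPM per kb, with the middle 50% between 294 and 552. The highest levels on this scale were those of Rpl41, the shortest ribosomal protein, with 2522 CPM per kb, Rplp1 of the stalk with 1141, Rps24 with 1082, Rpl23 with 801 and Rpl32 with 792. The lowest among tested members were those of Rpl39l with 2.40 CPM per kb, Rps4l with 2.62, Rpl5 with 14.9, Rps27rt with 17.3 and Rpl12 with 19.8. The low place of Rpl5 and Rpl12 went with intronless copies of the same sequence. The coding sequence of Rpl5, 891 bases, stands unchanged in the pseudogene Gm15500 (GRCm39 chr7:114304505-114305398), whose row held 394 CPM against 13.3 CPM in the row of Rpl5. The 495 coding bases of Rpl12 stand unchanged in Gm10275 with 260 CPM against 9.78 CPM. Over 1936 pseudogene rows matched by sequence, the pseudogenes of 16 members held over 50% of the reads that the gene and its pseudogenes shared, and those of 44 tested members under 5%. Reads from such copies cannot be told apart where the sequence is the same, so each member was also tested after its row and its pseudogene rows had been summed. Summed this way, the median rose to 525 CPM per kb and the middle 50% narrowed to 424 to 628.

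IFNβ moved individual ribosomal protein genes in both directions and by small amounts. Between Ifnb1eGFP and eGFP supernatant, which tests IFNβ in a background of tumor cell products, 15 members were higher and 19 lower by edgeR's quasi-likelihood test, with the Benjamini-Hochberg adjusted p over all 15033 genes not above 0.05. That was 17.4% and 22.1% of the 86 tested, where 30.1% of all genes were higher and 25% lower. Between rIFNβ and untreated control, which tests IFNβ without tumor cell products, 17 members were higher (19.8%) and 19 lower (22.1%), where 30.7% of all genes were higher and 24.6% lower. Both directions together, 39.5% of members and 55.1% of all genes were called in supernatant, and 41.9% and 55.3% with rIFNβ alone. The libraries of both groups did not overlap for 16 higher and 18 lower members in supernatant (32.4% and 26.6% of all genes) and for 27 and 29 with rIFNβ alone (36.4% and 29.7%). No member moved by 2 or more on the log2 scale with an adjusted p up to 0.01, a size reached by 5.39% of all genes in supernatant and 5.77% with rIFNβ alone. The median log2 fold change of the members was -0.07 and -0.01, against 0.03 and 0.04 for all genes tested. The middle 50% of members lay between -0.23 and 0.11 with IFNβ in supernatant, and that of all genes between -0.36 and 0.38. The split between higher and lower moved with the scaling: with DESeq2 it was 14 higher and 30 lower in supernatant (26.7% and 26.5% of all genes) and 13 and 26 with rIFNβ alone (26.9% and 26.6%). With upper quartile factors it was 10 and 27 (25.7% and 28.7%), and 9 and 27 (25.9% and 28.7%).

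The counts by part of the ribosome stand beside 30.1% of all genes higher and 25% lower in supernatant, and 30.7% and 24.6% with rIFNβ alone. Of the 43 genes of the 60S subunit, 7 were higher (16.3%) and 11 lower (25.6%) with IFNβ in supernatant. With rIFNβ alone, 8 were higher (18.6%) and 9 lower (20.9%). Of the 31 genes of the 40S subunit 6 were higher (19.4%) and 5 lower (16.1%) in supernatant, and 8 (25.8%) and 6 (19.4%) with rIFNβ alone. None of the 3 stalk genes was called in either comparison. The 6 tested paralogs gave 1 higher and 2 lower in supernatant, and 1 and 3 with rIFNβ alone. Of the 2 tested retrocopies Rps27rt was higher and Rpl35rt lower in supernatant, and only Rpl35rt was called, again lower, with rIFNβ alone.

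Calls overlapped between these comparisons, which share no library. There were 14 members higher in both, 14 lower in both, none called in opposite directions, 14 called in a single comparison and 44 in neither. All genes gave 3957 higher and 3184 lower in both. Log2 fold changes had the same sign in 74 of the 86 members, and across members the correlation of the 2 comparisons was r = 0.84 (Spearman's rho = 0.81), against r = 0.90 over all genes. Genes are not independent replicates, and this is a description of the points in the plot of both comparisons.

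**Figure D1:**
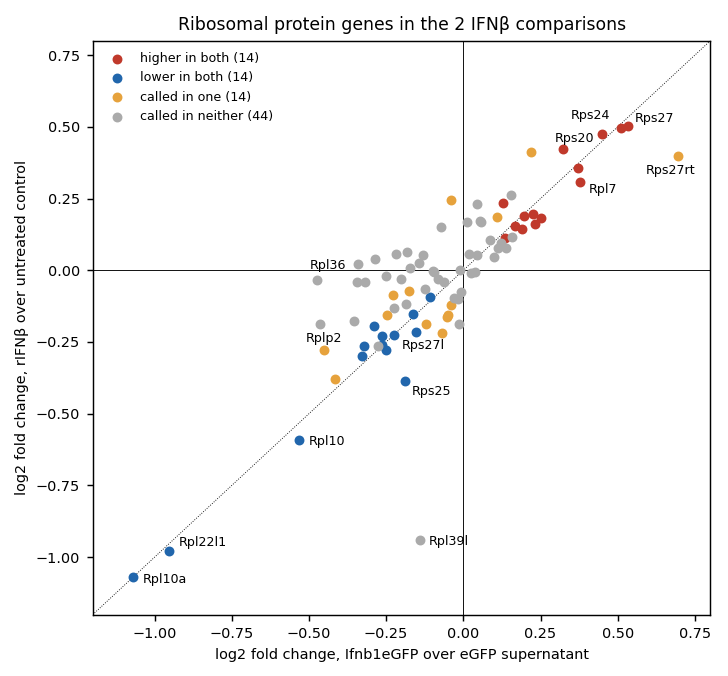
Log2 fold change of the 86 tested ribosomal protein genes with IFNβ in supernatant (horizontal axis, Ifnb1eGFP over eGFP supernatant) and with rIFNβ alone (vertical axis, over untreated control), 3 libraries per group. Each point is a gene, colored by whether it was called at an adjusted p of at most 0.05 in both comparisons, in 1 of them or in neither, and the dotted line marks equal values. Rpl10a and Rpl22l1 stand apart at about -1 on both axes, while 81 of the 86 genes lie within 0.58 of 0 on both.

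The largest fall was that of Rpl10a (ENSMUSG00000037805, GRCm39 chr17:28547144-28550008), which encodes the L1 stalk protein beside the ribosome's exit site for tRNA. It stood at 110, 114 and 121 CPM in the untreated control and 107, 114 and 119 CPM with eGFP supernatant, and at 52.3, 51.1 and 61.0 CPM with rIFNβ and 51.0, 50.2 and 60.7 CPM with Ifnb1eGFP supernatant. Every library with IFNβ lay below every library without it. The log2 fold change was -1.07 (SE 0.09, adjusted p = 1.03e-06) in supernatant and -1.07 (SE 0.09, adjusted p = 9.33e-07) with rIFNβ alone. Rpl10a was the member with the smallest adjusted p in both comparisons. A copy of its 651 coding bases without a change, Rpl10a-ps1 (GRCm39 chr1:65033110-65033763), held more reads than the gene. That row fell as well, from 187 ± 2.74 to 108 ± 6.90 CPM with rIFNβ and from 180 ± 20.7 to 94.7 ± 20.8 CPM in supernatant (SD, n = 3). With all matched rows summed, Rpl10a changed by -0.98 and -0.89 (adjusted p = 1.34e-06 and 2.69e-06).

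Rpl22l1 (chr3:28859585-28861573) fell nearly as far. It encodes a paralog of Rpl22 that can take its place in the ribosome and is best known for its opposing role in T cell development. Its levels were 18.7, 21.4 and 17.8 CPM in the untreated control and 21.3, 21.1 and 21.0 CPM with eGFP supernatant, against 10.1, 8.75 and 10.6 CPM with rIFNβ and 11.2, 10.5 and 11.1 CPM with Ifnb1eGFP supernatant. The log2 fold change was -0.95 (SE 0.08, adjusted p = 1.85e-06) in supernatant and -0.98 (SE 0.08, adjusted p = 1.5e-06) with rIFNβ alone, with no overlap between groups. Rpl22 itself was called in neither comparison, although its rIFNβ libraries lay below all untreated ones, and whether the paralogs differ was not tested. It stood at 135 ± 0.620 CPM in the untreated control, 127 ± 2.66 with eGFP supernatant, 126 ± 3.08 with rIFNβ and 124 ± 6.27 with Ifnb1eGFP supernatant, with log2 fold changes of -0.03 (adjusted p = 0.56) and -0.10 (adjusted p = 0.0703). The change with rIFNβ alone was called under 11 of the 27 alternatives, -0.14 (adjusted p = 0.0134) with the trend on GC content and length removed. Only 0.768% of the reads of Rpl22l1 and its copies were in pseudogene rows.

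Of the members called and moved by 0.58 or more on the log2 scale, which were 3 in each comparison (27.8% and 28.3% of all genes were called at this size), the others were Rps27rt in supernatant and Rpl10 with rIFNβ alone. Rpl10 (chrX:73314418-73316741), whose protein joins the 60S subunit in the last steps of its assembly, stood at 328, 269 and 282 CPM in the untreated control and 161, 186 and 236 CPM with rIFNβ. With eGFP supernatant its levels were 205, 243 and 316 CPM and with Ifnb1eGFP supernatant 168, 182 and 180 CPM. The groups did not overlap in either comparison, and the log2 fold changes were -0.53 (SE 0.16, adjusted p = 0.015) and -0.59 (SE 0.16, adjusted p = 0.00835). These calls were made on the gene's own row, and how reads were divided between the gene and its copies was not tested. Rpl10-ps1, which repeats its 642 coding bases without a change, rose from 231 ± 5.36 to 267 ± 20.9 CPM in supernatant and from 253 ± 14.5 to 287 ± 2.90 CPM with rIFNβ (SD, n = 3), and with all matched rows summed Rpl10 changed by -0.13 (adjusted p = 0.238) and -0.18 (adjusted p = 0.118).

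The other 11 members lower in both comparisons fell by less than 0.4 on the log2 scale. Among proteins of the 60S subunit, Rpl3, which lies near the peptidyl transferase center, stood at 402, 399 and 396 CPM in the untreated control against 316, 326 and 355 CPM with rIFNβ (log2 fold change -0.26, adjusted p = 0.00449), and at 371, 394 and 387 CPM with eGFP supernatant against 276, 319 and 326 CPM with Ifnb1eGFP supernatant (-0.32, adjusted p = 0.00126). No library with IFNβ reached the lowest without it. Rpl36a (-0.25 and -0.28), Rpl38 (-0.29 and -0.19), Rpl39 at the exit tunnel (-0.15 and -0.22) and Rpl37a (-0.16 and -0.15) were lower too. Among proteins of the 40S subunit, Rps28 changed by -0.33 and -0.30 and Rps2 by -0.26 and -0.23. Rps25, which some viral and cellular internal ribosome entry sites need, stood at 275, 279 and 270 CPM in the untreated control and at 216, 195 and 220 CPM with rIFNβ (-0.38, adjusted p = 0.000383). In supernatant Rps25 went from 261, 261 and 279 CPM to 250, 212 and 240 CPM (-0.19, adjusted p = 0.0277). Summed with pseudogene rows, Rpl37a was no longer called in either comparison (adjusted p = 0.204 and 0.66) nor Rps28 with rIFNβ alone (adjusted p = 0.218).

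Among subunit genes, the rises were led by genes of the 40S subunit. Rps27 (chr3:90119819-90120977), which encodes a zinc finger protein of the 40S subunit, stood at 106, 106 and 108 CPM in the untreated control and 109, 102 and 113 CPM with eGFP supernatant, and at 152, 144 and 158 CPM with rIFNβ and 166, 148 and 155 CPM with Ifnb1eGFP supernatant. The libraries with and without IFNβ did not overlap, and the log2 fold change was 0.53 (SE 0.05, adjusted p = 6.23e-06) in supernatant and 0.50 (SE 0.05, adjusted p = 9.38e-06) with rIFNβ alone. Rps24 (chr14:24537193-24547028), a 40S protein needed for processing of its rRNA and mutated in some Diamond-Blackfan anemia, stood at 397, 397 and 387 CPM untreated against 566, 545 and 556 CPM with rIFNβ. In supernatant its values were 379, 384 and 393 CPM without and 616, 501 and 529 CPM with IFNβ. It rose by 0.51 (SE 0.06, adjusted p = 4.00e-05) and 0.50 (SE 0.06, adjusted p = 4.74e-05).

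Rps20, a protein of the 40S head, stood at 141, 139 and 139 CPM untreated and 193, 199 and 190 CPM with rIFNβ, and at 141, 135 and 128 CPM with eGFP supernatant and 171, 201 and 179 CPM with Ifnb1eGFP supernatant. Its log2 fold changes were 0.45 (adjusted p = 5.56e-05) in supernatant and 0.47 (adjusted p = 3.47e-05) with rIFNβ alone, and 0.18 (adjusted p = 0.097) and 0.20 (adjusted p = 0.0571) once the trend on GC content and length was removed from each library. Rpl7, a 60S protein, stood at 378, 375 and 379 CPM untreated and 464, 459 and 479 CPM with rIFNβ, and at 369, 369 and 371 CPM against 512, 452 and 479 CPM in supernatant. It changed by 0.38 (adjusted p = 2.79e-05) and 0.31 (adjusted p = 0.000141). For both genes the lowest library with IFNβ lay above the highest without it. Other members higher in both were Rpl30 (0.37 and 0.36), Rps23 of the decoding center (0.32 and 0.42), Rpl35a (0.25 and 0.18), Rpl7l1 (0.23 and 0.16), Rpl17 (0.23 and 0.20), Rpl4 (0.20 and 0.19), Rpl24 (0.19 and 0.14), Rpl26 (0.13 and 0.11) and Rps14 (0.13 and 0.23). With that trend removed, Rpl30 stood at 0.08 and 0.07, Rpl4 at 0.05 and 0.04 and Rpl17 at -0.05 and -0.08, none of them called.

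**Figure D2:**
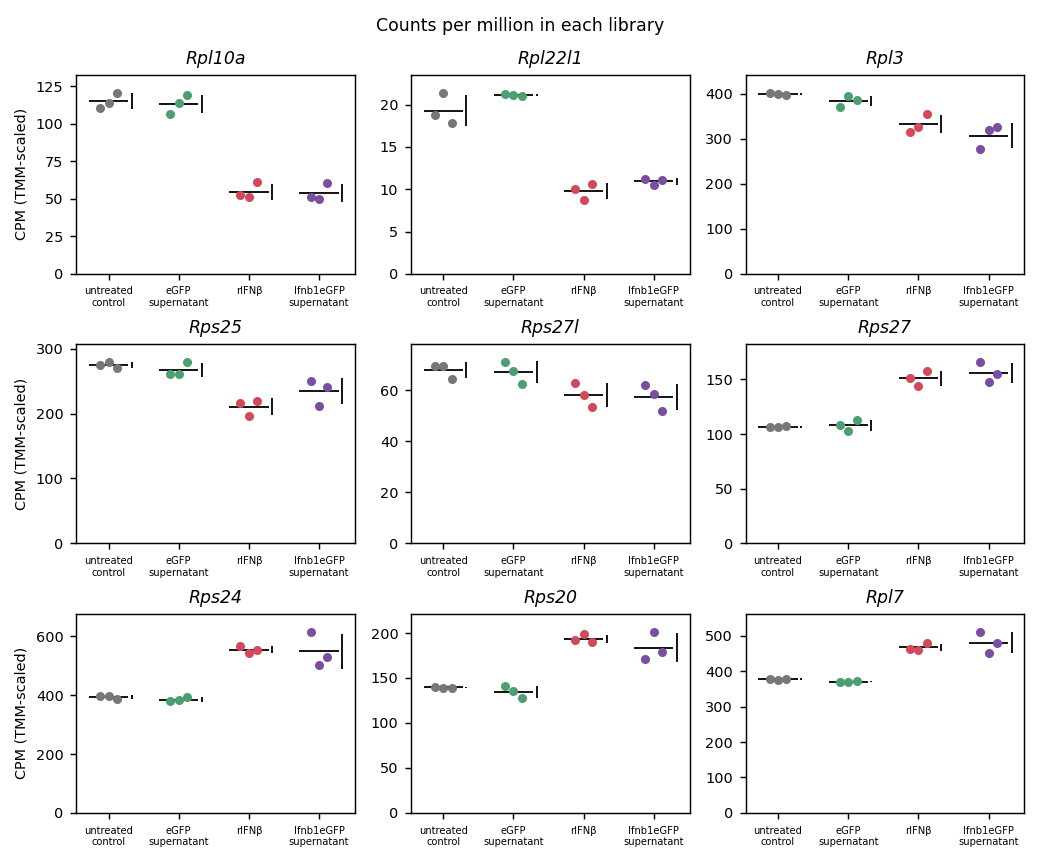
CPM (TMM-scaled, linear axis) of 9 ribosomal protein genes in each of the 12 libraries. Points are libraries, the horizontal bar is the mean of 3 and the vertical bar beside it 1 SD to either side. Rpl10a and Rpl22l1 are at about 50% of their level in both groups with IFNβ, Rpl3, Rps25 and Rps27l are slightly lower there, and Rps27, Rps24, Rps20 and Rpl7 are higher.

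Rps27 has a paralog that moved the other way. Rps27l (chr9:66853340-66856808), a p53 target gene whose protein differs little from that of Rps27, stood at 69.7, 69.8 and 64.5 CPM untreated against 63.0, 58.3 and 53.3 CPM with rIFNβ, and at 71.1, 67.8 and 62.6 CPM against 62.0, 58.5 and 52.0 CPM in supernatant. The log2 fold change was -0.22 (SE 0.08) in both, with adjusted p = 0.0311 in supernatant and 0.0314 with rIFNβ alone. Rps27 and Rps27l match at 192 of 252 coding bases (76.2%), whereas the retrocopy Rps27rt (chr9:114811434-114811807) matches Rps27 at all 252. To show how far reads of the paralog can be told from those of Rps27, coding bases 1 to 60 of both are given from GENCODE M39, with the 18 bases of Rps27l that differ in capitals.
Rps27: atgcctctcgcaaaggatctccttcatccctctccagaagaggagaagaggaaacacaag
Rps27l: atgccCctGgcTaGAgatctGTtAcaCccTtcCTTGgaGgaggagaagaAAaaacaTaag
Rps27rt itself had 2.93, 2.58 and 3.04 CPM with eGFP supernatant and 5.51, 4.99 and 3.39 CPM with Ifnb1eGFP supernatant (log2 fold change 0.70, SE 0.22, adjusted p = 0.0183). With rIFNβ alone, 5.58, 7.17 and 4.24 CPM overlapped 4.67, 3.57 and 4.66 CPM (0.40, adjusted p = 0.136). As its coding sequence is that of Rps27, these values are uncertain.

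Other paralogs were set beside their parents. Rpl36al and Rpl36a, which share 87.7% of coding bases, were both lower with rIFNβ alone (-0.19, adjusted p = 0.0064, and -0.28, adjusted p = 0.00225). In supernatant Rpl36al changed by -0.12 (adjusted p = 0.0528) and Rpl36a by -0.25 (adjusted p = 0.00437). Rpl7l1, which acts in the nucleolus in making the 60S subunit, and Rpl7 were both higher in both comparisons. Rpl35rt, identical to Rpl35 at 368 of 369 coding bases, changed by -0.26 in both (adjusted p = 0.00832 and 0.00877), and Rpl35 by -0.18 (adjusted p = 0.0118) and -0.07 (adjusted p = 0.248); their reads are hard to separate. Rps4x stood at 0.11 (adjusted p = 0.0537) and 0.08 (adjusted p = 0.164), and the rare Rps4l at 0.16 (adjusted p = 0.738) and 0.26 (adjusted p = 0.562). Rpl39l had log2 fold changes of -0.14 and -0.94 with standard errors of 1.06 and 1.05, so no difference was detectable at its depth. Rps19bp1 stood at 0.09 (adjusted p = 0.392) and 0.10 (adjusted p = 0.312).

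Members with roles outside the ribosome are given next, most of which were not called in either comparison. Rpl5 and Rpl11 carry the 5S rRNA and, when free, bind Mdm2. Rpl11 changed by 0.01 (adjusted p = 0.914) in supernatant and 0.17 (adjusted p = 0.136) with rIFNβ alone. Rpl5 stood at -0.28 (adjusted p = 0.141) and -0.26 (adjusted p = 0.166) in its own row and at 0.17 (adjusted p = 0.00474) and 0.14 (adjusted p = 0.0143) once its pseudogene rows, 96.7% of the reads, were added. With the trend on GC content and length removed, the own row of Rpl5 was called lower, at -0.56 (adjusted p = 0.00487) and -0.54 (adjusted p = 0.00647). Rpl13a, which in interferon-γ-treated myeloid cells leaves the ribosome to silence mRNAs, changed by 0.05 (adjusted p = 0.772) and 0.23 (adjusted p = 0.129). Rps6, the substrate of the S6 kinases, changed by -0.01 (adjusted p = 0.931) and -0.19 (adjusted p = 0.214), Rps3 by -0.06 (adjusted p = 0.16) and -0.04 (adjusted p = 0.351), and Rps19 by -0.09 (adjusted p = 0.172) and 0.00 (adjusted p = 0.952). Rps27a, made as a fusion with ubiquitin, changed by -0.05 (adjusted p = 0.449) and -0.16 (adjusted p = 0.0295), and by -0.37 (adjusted p = 8.1e-06) and -0.46 (adjusted p = 1.18e-06) with the trend on GC content and length removed. Rpsa, also known as a laminin receptor, changed by -0.25 (adjusted p = 0.0253) and -0.16 (adjusted p = 0.133). Rpl41 changed by -0.45 (adjusted p = 0.0113) and -0.28 (adjusted p = 0.0908) and Rpl12 by -0.42 (adjusted p = 0.0441) and -0.38 (adjusted p = 0.0647). Outside the rule, Rack1 gave -0.04 (adjusted p = 0.702) and Fau -0.01 (adjusted p = 0.962) in supernatant.

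**Figure D3:**
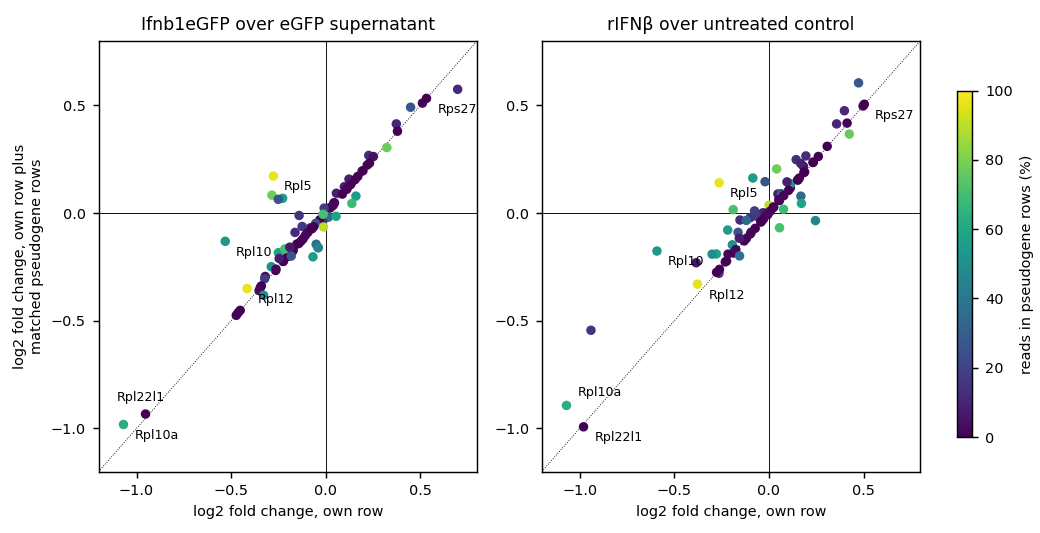
Log2 fold change of the 86 tested ribosomal protein genes from the gene's own row (horizontal axis) and after adding the pseudogene rows matched to it by sequence (vertical axis), for both IFNβ comparisons. Color gives the share of reads in pseudogene rows, and the dotted line marks equal values. Rpl10a, Rpl22l1 and Rps27 stay near the line, Rpl10 comes closer to 0 and Rpl5 changes sign.

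Summing pseudogene rows left most calls in place. In supernatant 31 of the 34 called members were called in the same direction, 3 were lost and 3 gained, with 17 higher and 17 lower (30.4% and 25.3% of all genes). With rIFNβ alone 29 of 36 were kept and 6 gained, with 21 higher and 14 lower (30.9% and 24.8% of all genes). The sign changed for 7 and 9 members.

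Some members, among them Rplp1 and Rplp2 of the stalk and Rpl36, varied widely between libraries of a group. Rplp1 stood at 153, 534 and 231 CPM with Ifnb1eGFP supernatant, at 439, 452 and 270 CPM with eGFP supernatant, at 407, 527 and 377 CPM with rIFNβ and at 460, 391.9 and 438 CPM untreated. Rplp2 had 77.1, 198 and 105 CPM and Rpl36 21.9, 98.9 and 34.2 CPM with Ifnb1eGFP supernatant, replicates 1 to 3. In each, replicate 2 of the Ifnb1eGFP supernatant was the highest and replicate 1 the lowest of that group. Log2 fold changes in supernatant were -0.34 for Rplp1 (adjusted p = 0.458), -0.46 for Rplp2 (0.197), -0.23 for Rplp0 (0.12) and -0.47 for Rpl36 (0.401), all edgeR adjusted p. The pooled SD of log2 CPM within groups was 0.65 for Rpl36, 0.52 for Rplp1, 0.46 for Rpl28 and 0.41 for Rplp2, against a median of 0.09 over the 86 members. Replicate 1 lay below replicate 2 in 51 members and replicate 3 below replicate 2 in 54, with a median difference of replicate 1 from replicate 2 of -0.12 and the largest, in Rpl36, of -2.17 on the log2 scale.

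**Figure D4:**
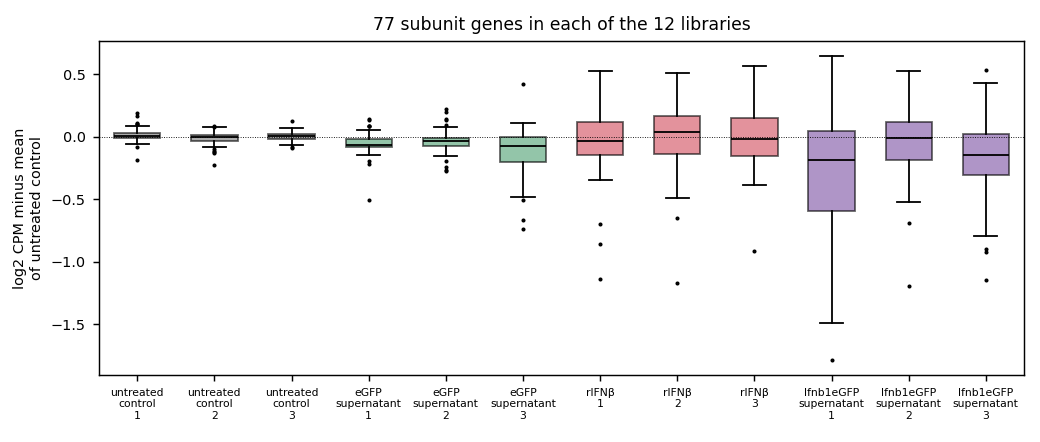
Log2 CPM of the 77 subunit genes in each of the 12 libraries, as the difference from the gene's mean over the 3 untreated control libraries. Boxes span the middle 50% of genes with the median as a line, whiskers reach to 1.5 times the box height and dots are genes beyond. Ifnb1eGFP supernatant replicate 1 has the lowest median and the widest box, and replicate 2 of the same group lies close to the rIFNβ libraries.

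Supernatant itself moved no ribosomal protein gene past the threshold when all libraries were used. Between eGFP supernatant and untreated control edgeR called 0 of 86 members, where 0.299% of all genes were called, and DESeq2 also called 0 (0.818% of all genes higher and 0.432% lower). At an unadjusted p under 0.05 there were 6 members, against 8% of all genes. The log2 fold change was negative in 77 of the 86, with a median of -0.06 against 0.00 over all genes tested, and ran from -0.60 in Rpl39l and -0.59 in Rps27rt, through -0.31 in Rps4l, -0.20 in Rpl10 and -0.16 in Rpl35rt, to 0.11 in Rps23 and 0.13 in Rpl22l1. In 28 members all eGFP supernatant libraries lay below all untreated libraries (7.52% of all genes) and in 0 above (7.96%).

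Between Ifnb1eGFP supernatant and rIFNβ, which tests tumor cell products in the presence of IFNβ, edgeR called 0 members, where 0.160% of all genes were called. DESeq2 called 1 (0.585% of all genes higher and 0.126% lower). At an unadjusted p under 0.05 there were 21 members, against 8.57% of all genes. The libraries did not overlap for 1 higher and 9 lower members (8.22% and 4.58% of all genes). The median was -0.09 and the lowest values were those of Rpl36 (-0.52), Rplp1 (-0.52), Rpl28 (-0.48), Rps4l (-0.42) and Rps7 (-0.39), while Rpl39l (0.20), Rpl22l1 (0.16) and Rps25 (0.15) were highest. The calls in this comparison depended on which library was left out. Without replicate 1 or replicate 3 of the Ifnb1eGFP supernatant, edgeR called 0 members (0.150% and 0.0522% of all genes). Which of these libraries departs from the group was not tested. Without Ifnb1eGFP supernatant replicate 2, edgeR called 1 member higher, Rps25 at 0.22 (adjusted p = 0.0443), and 32 lower (1.27% and 5.59% of all genes). They were led by Rpl36 at -1.40 (adjusted p = 0.0337), Rplp1 at -1.19 (adjusted p = 0.0326) and Rpl28 at -1.06 (adjusted p = 0.03). Without the same library, the comparison with eGFP supernatant gave 18 higher and 37 lower members (28.9% and 27.7% of all genes).

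Whether the response to IFNβ differed between supernatant and plain medium was tested as an interaction. Neither edgeR nor DESeq2 called a member, where edgeR called 0 of all genes and DESeq2 0.0266% higher and 0.0133% lower, and 1 member had an unadjusted p under 0.05, against 4.40% of all genes. For Rpl10a the effects of IFNβ in supernatant and alone were each -1.07. Of the members with the largest interaction values, Rpl39l (0.80, SE 1.5), Rpl36 (-0.44, SE 0.64) and Rplp1 (-0.36, SE 0.52) had standard errors above the value.

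Members that rose and fell were compared in features the rule did not use. The 14 members higher in both comparisons had a median transcript GC content of 47.2%, the 14 lower in both 51.0% and the 44 called in neither 50.9%. Across the 86 members, Spearman's rho of GC content and log2 fold change was -0.35 in supernatant and -0.16 with rIFNβ alone, and over the 14962 tested genes with known GC content -0.21 and -0.09. The difference between replicates 1 and 2 of the Ifnb1eGFP supernatant also followed GC content across members, with rho = -0.49. These correlations run across genes of the same libraries. When the trend on GC content and length was removed from each library, 11 members were higher and 25 lower in supernatant (30.1% and 29.5% of all genes). Rpl10a then changed by -0.88 and -1.04, Rpl22l1 by -1.25 and -1.27, Rps27 by 0.46 and 0.42 and Rps24 by 0.35 and 0.34, all still called. Of the 14 members higher in both comparisons, Rps20 (adjusted p = 0.097 and 0.0571), Rpl30 (adjusted p = 0.189 and 0.235), Rpl4 (adjusted p = 0.171 and 0.279) and Rpl17 (adjusted p = 0.365 and 0.19) were then called in neither comparison, Rpl17 with a turned direction, and Rpl24, Rpl26 and Rpl35a were not called with rIFNβ alone (adjusted p = 0.104, 0.167 and 0.104). Of those lower in both, Rpl38 was called in neither (adjusted p = 0.315 and 0.178).

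The start sites were searched for the TOP motif, a C followed by at least 4 bases that are each C or T, on the strand of the transcript. RefSeq sequences around the annotated start (GRCm38.p6) matched 67 members in 79 entries. The motif began exactly at the annotated start in 17.7% of these entries and in 2.51% of the 32851 entries of all genes. Within the 25 bases from 10 before the start, it was found in 54.4% against 30.7%, and its reverse complement in 21.5% against 34.8%. At the start itself it stood in 2 of 11 entries of members higher in both comparisons, in 1 of 13 of those lower in both, in 4 of 11 of those called in a single comparison, in 7 of 40 of those called in neither and in 0 of 4 of those not tested. Shown are 15 bases before and 15 from the annotated start of 4 leading members, where capitals mark the start base or, in Rps27, the motif that begins there. The other 3 do not have it at that base but have it within the 25 bases searched. Rps24 and Rpl10a each have a further entry, not shown, without the motif in either place.
Rps27: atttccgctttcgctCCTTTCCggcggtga
Rps24: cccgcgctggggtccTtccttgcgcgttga
Rpl10a: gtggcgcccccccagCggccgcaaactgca
Rpl22l1: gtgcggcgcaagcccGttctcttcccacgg
They lie at chr3:90213634-90213663 (minus strand), chr14:24490663-24490692, chr17:28328456-28328485 and chr3:28805493-28805522 (plus strand) of GRCm38.p6. Rps20 and Rpl7 were not matched to an entry.

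The genes that make ribosomes or share the TOP motif also split in both directions, beside 30.1% of all tested genes higher and 25% lower in supernatant and 30.7% and 24.6% with rIFNβ alone. Of 27 other TOP mRNAs, mostly translation factors, 6 were higher and 8 lower in each IFNβ comparison. Higher were Eif3h (0.28 and 0.23) and Eef1a1 (0.24 and 0.19), the factor that brings tRNA to the ribosome, and lower Eef1d (-0.36 and -0.35) and Tomm20 (-0.39 and -0.42). Of 93 tested genes of ribosome biogenesis 38 were higher and 19 lower in supernatant, and 34 and 22 with rIFNβ alone. Polr1h, a subunit of RNA polymerase I (1.17 and 1.42), was among those higher, and among those lower were Nop10, of the box H/ACA particle (-0.79 and -0.95), and Nop16 (-0.99 and -1.16). Of 34 genes of mTOR signaling 8 were higher and 14 lower in supernatant and 8 and 12 with rIFNβ alone, with Mlst8 (0.66 and 0.66) and Lamtor5 (0.62 and 0.55) higher and the mTORC1 inhibitor Sesn1 (-1.06 and -1.10) and Rps6ka3 (-0.90 and -1.10) lower.

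In the Myc network 4 of 10 tested genes were higher and 4 lower in each comparison. Myc, which drives ribosome production, was lower, with log2 fold changes of -1.44 (SE 0.19, adjusted p = 5.37e-05) in supernatant and -1.34 (SE 0.19, adjusted p = 8.76e-05) with rIFNβ alone, from 25.7 ± 3.89 to 9.46 ± 2.75 CPM and from 27.5 ± 3.59 to 10.8 ± 0.836 CPM (SD, n = 3). Its antagonist Mxd1 rose by 1.81 and 2.07, while Mxd4 of the same network fell, with values of -0.65 and -0.58. In the p53 arm that free ribosomal proteins act on, Trp53 (0.31 and 0.40) and Mdm2 (0.20 and 0.18) were higher, and Zmat3 (-0.58 and -0.60), Phlda3 (-0.81 and -0.61) and Sesn1, which is also among the mTOR genes, were lower, with 2 of 10 genes higher and 4 lower in each comparison. Of the 78 nuclear genes for mitochondrial ribosomal proteins, 35 were higher and 8 lower in supernatant and 36 and 8 with rIFNβ alone, with medians of 0.14 and 0.17, against the same shares of all genes (30.1% and 25%, and 30.7% and 24.6%). Mrpl1 (1.00 and 0.97), Mrpl30 (0.69 and 0.71) and Mrps18c (0.88 and 0.85) were among those higher and Mrps36 (-0.65 and -0.57) among those lower. In none of these lists was a gene called between eGFP supernatant and untreated control, and 1, the Myc antagonist Mxi1, was higher with Ifnb1eGFP supernatant than with rIFNβ (0.29, adjusted p = 0.0338).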

How the data were processed

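Total RNA of 12 libraries (4 groups of 3) had been made into libraries with a stranded total RNA kit. The authors aligned reads and estimated expected counts per gene with RSEM (1.3.3 in the submitters' processing notes) and deposited these expected counts without normalization. The notes join the build names GRCm39 and mm10, and gene positions here are those of GRCm39 in GENCODE M39. Of the deposited values 12.0% were not whole, and 86.9% of those of the ribosomal protein genes, since RSEM divides reads that match several genes. All were rounded.

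Genes were kept by filterByExpr, scaled by TMM and fitted over the 4 groups with edgeR 4.0.16 (R 4.3.3) by the quasi-likelihood test. P-values were adjusted over 15033 genes by Benjamini-Hochberg and called up to 0.05, and the study's rule (2 or more on the log2 scale either way, adjusted p up to 0.01) was counted too. CPM are TMM-scaled, and the limit for 0 counts is 3 counts per library and covers counting error only. Pseudogene rows were matched to coding sequences with blastn 2.17.0 (at least 60 bases and 80% identity). DESeq2 1.42.0, other scalings, no low-count filter, a replicate block, left-out replicates and summed rows were alternatives. Correlations of libraries with the same replicate number were positive in each pair of groups. They lay between 0.167 and 0.246 for Ifnb1eGFP supernatant and rIFNβ, and between 0.0892 and 0.252 for Ifnb1eGFP and eGFP supernatant. For rIFNβ and untreated control they lay between 0.0765 and 0.108, and for eGFP supernatant and untreated control between 0.0774 and 0.124. Those of eGFP supernatant and rIFNβ, not compared here, lay between 0.144 and 0.212. Named genes were the 5 highest and lowest per comparison and per kb, those called at 0.58 or more, paralogs with parents, and members with known roles; others were added for their calls. Some members are counted but not reported singly here. Members and lists were chosen with earlier results of these data known.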

Additional observations from a re-analysis of the deposited data

How the results depend on the processing

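Of the 34 members called with IFNβ in supernatant, 12 were called under each of the 27 alternatives (Rpl10a, Rpl22l1, Rpl3, Rpl35a, Rpl35rt, Rpl36a, Rpl7, Rpl7l1, Rps23, Rps24, Rps27 and Rps28), and of the 36 with rIFNβ alone 14, among them Rpl10a, Rpl22l1, Rpl3, Rpl35rt, Rpl36a, Rpl36al, Rpl39, Rpl7, Rps14, Rps23, Rps24, Rps25 and Rps27. Leaving out each replicate gave 28 to 55 called members with IFNβ in supernatant, 28 to 44 with rIFNβ alone and 0 to 33 between Ifnb1eGFP supernatant and rIFNβ. Of all genes, these fits called 47.9% to 56.6%, 48.9% to 57.5% and 0.0261% to 6.85%. The highest counts in supernatant, 55 and 33, came without Ifnb1eGFP supernatant replicate 2. The study's fold rule called 0 members in either IFNβ comparison. With the replicate block, 19 were higher and 21 lower in supernatant and 17 and 20 with rIFNβ alone, where 59% and 58.8% of all genes were called. With only the compared groups in the fit, 13 were higher and 10 lower in supernatant and 19 and 29 with rIFNβ alone. Of all genes, 48.8% and 61.7% were called in these fits. The block changed no call of a member between Ifnb1eGFP supernatant and rIFNβ. Over all groups, the 18 same-number correlations lay between 0.0582 and 0.252 and the 36 others between -0.318 and 0.147. The best correlation was with the library's own number in 35 of 36 cases. The main fit and the p-values it gave did not use the replicate numbers, so the fit with the block stands beside it. With the block, edgeR called 0 members between eGFP supernatant and untreated control (0.812% of all genes) and 0 in the interaction (0% of all genes). Of protein-coding counts without mitochondrially encoded genes, members took 1.87% in the untreated control, 1.77% with eGFP supernatant, 1.88% with rIFNβ and 1.72% with Ifnb1eGFP supernatant.

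Chosen after seeing the data were sums over matched pseudogene rows and removal of the trend on GC content and length. The latter with the replicate block called 1 member (Rps27a) between eGFP supernatant and control, where 2.35% of all genes were called. Between Ifnb1eGFP supernatant and rIFNβ it called 2, among them Rps12 (0.752% of all genes). DESeq2 called 1 there (0.712% of all genes). Directions turned as follows, with IFNβ in supernatant and then rIFNβ alone. With own -ps rows added, Rpl10 stood at 0.044 and 0.11 and Rpl15 at 0.061 and 0.16. With matched rows added, Rpl15 stood at 0.068 and 0.16, Rpl5 at 0.17 and 0.14, and with rIFNβ alone Rps7 at 0.15. With the GC and length trend removed, Rpl17 stood at -0.053 and -0.077 and Rpl34 at -0.27 and -0.23, and with the replicate block as well Rpl17 stood at -0.052 and -0.077 and Rpl34 at -0.27 and -0.23. With matched rows added and the trend removed, Rpl17 stood at -0.0087 and -0.0063, Rpl31 at -0.12 and -0.15, Rpl34 at -0.27 and -0.23 and Rpl18 at 0.11 in supernatant. The cause was not tested. At 3 libraries a group, levels near 1 CPM, as of Rpl39l, limit what can be detected.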
